A study of Potamopyrgus antipodarum with 6 samples.

Results

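The lake-high windows are 100 bp windows in which every lake pool carried clearly more precipitated DNA than every river pool. A window entered when its counts summed over the 6 pools reached 31 and when its lowest lake value was at least 1.5 times its highest river value, in counts scaled to a column total of 1000000 (CPM). The rule selected 4199 windows of the 98470 with 31 or more counts, out of 739509 windows in all. The values that chose these windows are the lake and river counts themselves, so their lake over river ratios, and those of their neighbours, are given as a description with no test.

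The snail is Potamopyrgus antipodarum, the New Zealand mud snail, which reproduces asexually in its invaded North American range. Foot tissue came from Lake Lytle, a lake without current, and from the Snake River at its Ritter Island side channel, with 3 pools of 10 individuals per site. The sample labels were followed here, while the study's text describes the river site as a tributary stream and allows for larger pools. The lake pools are numbered 1, 2 and 3 and the river pools 10, 11 and 12, and all snails were wild-caught, untreated and kept at 14 °C before dissection. DNA was sheared on a 300 bp program, precipitated with an antibody to methylated cytosine and sequenced (MeDIP-Seq). No age, genotype or body size was used here, and with a single site per habitat the site and the habitat cannot be told apart.

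Methyl groups are added to cytosine, mainly at CpG dinucleotides, by DNA methyltransferases. In molluscs the mark lies mostly in the bodies of transcribed genes rather than across the whole genome, and gene body methylation is usually found in broadly expressed genes. MeDIP recovers sheared fragments that carry methylated cytosines, so a precipitated fragment raises the counts of several neighbouring windows at once. The signal of a window follows its methylated copies, its CpG number and its copy number together. In bulk foot tissue, a larger share of methylated copies and a different mix of cells or of genomes cannot be told apart. The windows tile a transcriptome reference, so introns and intergenic DNA are not covered, and positions below are on the authors' joined sequence of all contigs, counted from 1. DNA offers no marker transcripts, so the tissue label could not be checked.

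The pools were unequal in depth, with 4.04 to 5.01 M counts in the lake pools and 2.21 to 4.18 M in the river pools. Lake pools 2 and 3 were deeper than every river pool, so depth and site were partly confounded. Counting noise exceeded the difference between lake pools 2 and 3 (chi-square of 0.805 per window), which were counted as 1 sample in each mean ± SD, so that n = 2 for the lake and n = 3 for the river. Pools of a site are separate pools of snails, and nothing more is stated about their independence. River pool 12 lay nearer to lake pool 1 (chi-square of 1.15 per window) than to river pools 10 and 11 (2.27 and 3.53). Lake pool 1 in turn lay slightly nearer to river pool 12 than to lake pool 3 (1.20), and nearest to lake pool 2 (1.08). Counts are capped at 300 per window and pool, a limit that no lake-high window reached, since the highest count of a pool in them was 169. Counting intervals below are exact at 95% and cover counting error only.

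Lake-high windows made up 4.26% of the windows with 31 or more counts, while the rule turned round, with the river on top, selected 324 windows (0.329%). Over all windows with 31 or more counts, the lake pools lay wholly above the river pools in 23632 (24%), so most of these windows failed only the fold. The general level was tilted in the same direction, because the median log2 ratio of mean lake over mean river CPM was 0.33 over all these windows and 1.46 in the lake-high ones. Log2 ratios carry a pseudocount of 0.5 counts. When the scaling removed part of that tilt, the 2 directions came closer. TMM-adjusted totals gave 2922 lake-high and 624 river-high windows, DESeq2 size factors 2530 and 743, and an offset that follows window abundance 1686 and 1099. The windows kept by these scalings were 69.5%, 59.5% and 38.7% of the 4199.

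The ratio of the lowest lake to the highest river CPM had a median of 1.72 in lake-high windows (quartiles 1.59 and 1.99). It reached 2 in 1019 windows (24.3%), 3 in 128 and 5 in 6, with a maximum of 7.23. Most lake-high windows therefore sat close above the fold, on the shoulder of a single broad distribution with no gap at the threshold. Over all windows with 31 or more counts the median ratio was 0.77.

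**Figure D1:**
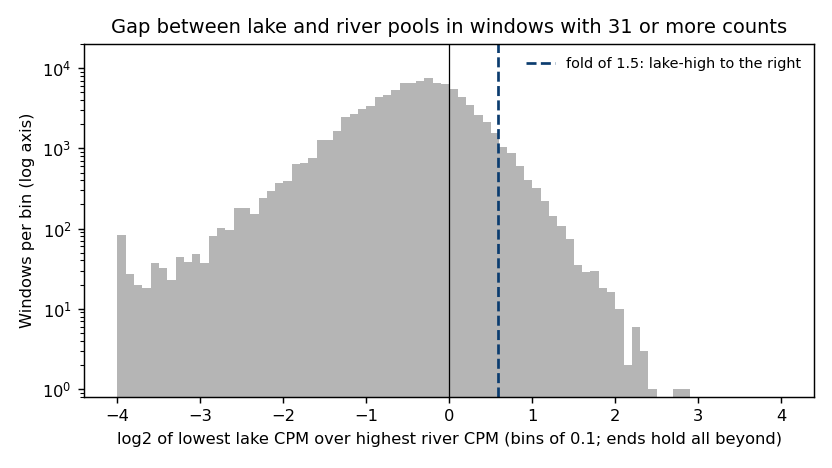
Number of windows (log axis) by the log2 ratio of the lowest lake CPM to the highest river CPM, over the 98470 windows with 31 or more counts, with values beyond the axis placed in the end bins. The dashed line is the fold of 1.5, and the 4199 windows to its right form the smooth upper shoulder of the distribution.

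The values just inside and just outside the fold show how fine the division was. At position 72424401, just inside, CPM was 11.1, 12.2 and 13.6 across lake pools against 7.35, 6.33 and 7.42 across river pools. At 7181701, just outside, it was 5.69, 9.02 and 5.39 in the lake and 2.20, 0.904 and 3.59 in the river. The excluded window had the higher log2 ratio of means (1.53 against 0.79), because the rule looks only at the lowest lake and the highest river pool.

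River pool 12 was the highest river pool in 2798 of the lake-high windows (66.6%), compared with 57.3% of all windows with 31 or more counts. Lake pool 1 was the lowest lake pool in 2475 (58.9%, compared with 43.2%). These are the 2 pools that lay nearest to each other across sites, and they set the rule most often. Lake pool 1 was also the shallowest lake pool and river pool 12 the deepest river pool. Without river pool 12 the rule selected 22156 windows and without lake pool 1 it selected 9437, and leaving out any other pool gave 5036 to 5806. Median CPM over the lake-high windows was 3.47, 4.06 and 3.99 in lake pools 1, 2 and 3. In river pools 10, 11 and 12 it was 1.10, 0.904 and 1.68. In reads, a typical lake-high window held 14, 18 and 20 counts across lake pools against 3, 2 and 7 across river pools. No lake pool was at 0 in any of them. River pool 11, the shallowest, was at 0 in 459, river pool 10 in 211 and river pool 12 in 11. A count of 0 allows up to 3 counts, or 1.36 CPM, in river pool 11.

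Lake-high windows had modest coverage. Their summed counts had a median of 65 (range 31 to 626), against 91 for all windows with 31 or more. The share that was lake-high was 5.95% among windows of 31 to 60 counts, 6.16% at 61 to 120 and 3.58% at 121 to 240. It dropped to 0.686% at 241 to 480 and to 0.0302% (4 windows) above that. The median log2 ratio of all windows moved with coverage as well, from 0.50 and 0.57 in the lowest 2 classes to 0.01 and -0.20 in the highest 2. River-high windows took 0.564% of the lowest class and 0.0302% of the highest. Under the offset that follows abundance, the lake-high share was 2.44%, 1.98%, 1.88%, 0.686% and 0.0453% from the lowest class to the highest, so the low share above 240 counts remained and the peak at 61 to 120 counts did not.

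**Figure D2:**
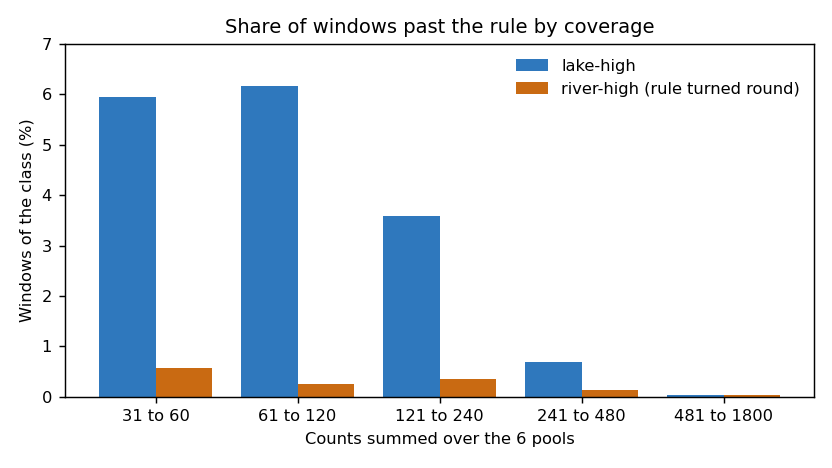
Percentage of windows selected by the rule (blue, lake over river) and by the rule turned round (orange, river over lake) in 5 classes of counts summed over the 6 pools. The lake-high share is about 6% up to 120 counts and falls below 1% above 240 counts, while the river-high share stays below 1% throughout.

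The edgeR quasi-likelihood test (Benjamini-Hochberg adjusted p under 0.05) uses the same contrast and so adds no independent evidence. It called 613 of 146394 tested windows higher in the lake (0.419%), and 599 of the 98470 (0.608%). Among the lake-high windows it called 518 (12.3%), so the rule and the test picked overlapping but different sets, with 86.5% of those 599 inside the rule. The count was unstable. It was 21, 0 and 0 without lake pool 1, 2 or 3, and 0, 222 and 2220 without river pool 10, 11 or 12. With lake pools 2 and 3 merged into 1 sample, as in each mean ± SD, 1 lake-high window was called. At an unadjusted p under 0.05 the same fits gave 3956 windows with all pools, 3335 to 3707 with a pool left out and 3767 with the pools merged. The rule chose these windows on the same contrast, so high counts follow from it and are no measure of stability. The share of all tested windows at this level was not computed.

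The best covered lake-high windows were moderate in fold. At 29762201, the highest of all, CPM was 33.9, 34.5 and 32.1 across lake pools against 19.8, 14.5 and 21.3 across river pools. That is 33.6 ± 0.427 (SD, n = 2) against 18.5 ± 3.61 (SD, n = 3), with a gap of 1.51 between the nearest pools. At 2763501 the values were 26.5, 32.2 and 33.7 in the lake and 15.4, 11.8 and 17.5 in the river. At 3816501 they were 27.0, 29.3 and 25.3 in the lake and 14.7, 12.7 and 16.5 in the river. Within a site the pools of these windows also differed, by up to about as much as the gap between sites for the river, and the ratio of summed counts at 29762201 was 1.74 (1.46 to 2.08).

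The largest gaps came from windows with nearly empty river pools. At 22165501 the lake pools held 7, 11 and 13 counts (1.73, 2.48 and 2.59 CPM) and the river pools 0, 0 and 1, giving a gap of 7.23. Its summed ratio of 20.9 has a counting interval of 3.49 to 853, so its size is essentially open. At 55000401 the river counts were the same (0, 0 and 1), with 7, 7 and 17 in the lake and a gap of 6.59. At 20416301 the lake pools held 12, 16 and 12 counts and the river pools 0, 1 and 1, a gap of 5.30 (summed ratio 13.5, 3.50 to 115). At 20029101, the first covered window of its stretch, the counts were 12, 11 and 15 against 1, 0 and 2, and the next window was lake-high too (8, 11 and 8 against 1, 0 and 4). In all 4 windows of this kind the river pools held at most 3 counts together.

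Neighbouring windows were described within covered stretches, that is, runs of windows separated from the next by at least 8 windows that were empty in every pool. There were 43878 stretches, with a median length of 500 bp, and 26495 of them had a window of 31 or more counts. A sequenced read was counted in 1.50 windows on average in each pool, so adjacent windows share reads, and fragments from the 300 bp program reach further. Neighbours are therefore not independent measurements. The 4199 windows lay in 3084 stretches (11.6% of those with 31 or more counts). Of these stretches 2252 held a single lake-high window and 832 held at least 2, together 1947 windows, and no stretch held more than 6. Only 4 stretches held both a lake-high and a river-high window.

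Lake-high windows formed 3342 uninterrupted runs, of which 2667 were single windows, 533 had 2 windows, 110 had 3, 24 had 4 and 8 had 5. An adjacent lake-high window was present for 1532 (36.5%), and one within 3 windows for 1786 (42.5%). For river-high windows these shares were 26.5% and 28.4%, and the longest run was 4. River-high windows were much rarer (0.329% against 4.26%), so clustering was not particular to the lake-high ones. The adjacency share of lake-high windows moved with the rule. It was 19.9% at a fold of 2, 47.6% at a fold of 1.3 and 70.1% without river pool 12.

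Around a lake-high window, 29.2% of the adjacent windows with 31 or more counts were lake-high as well. The share was 13.7% at 200 bp, 9.12% at 300 bp and 7.06% at 500 bp, and it was 7.89% at 800 bp. Around all windows with 31 or more counts it was 4.20 to 4.58% at every distance up to 800 bp. The excess thus lay mostly in the first 300 bp, and a smaller excess continued along the stretch. At 800 bp it rested on 30 of 380 windows. The background was not matched for coverage, and 5.95% and 6.16% of all windows of 31 to 60 and 61 to 120 counts were lake-high. The cause of the decline with distance was not tested.

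The flanks leaned to the lake too. Over the 7158 adjacent windows with at least 10 counts, the median log2 ratio was 1.14 (quartiles 0.80 and 1.47), and 98.0% were above 0. These flanks include 1714 that were lake-high themselves and so lie above 0 by the rule. For neighbours of all windows with 31 or more counts the median was 0.36 and 70.2% were above 0. Taken with 1 pool at a time against the mean of the other site, the flank median was 0.95, 1.18 and 1.22 for lake pools 1, 2 and 3. It was 1.32, 1.56 and 0.73 for river pools 10, 11 and 12, so each pool placed the flanks higher in the lake, least so for river pool 12. The lake medians rose with the depth of the pool and the river medians fell with it. The part that depth has in these values was not tested. Further out the median fell to 0.85 at 200 bp, 0.73 at 300 bp and 0.56 at 800 bp, compared with 0.37 to 0.41 around all windows. This background was not matched for coverage, and all windows of 31 to 60 and 61 to 120 counts had medians of 0.50 and 0.57.

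**Figure D3:**
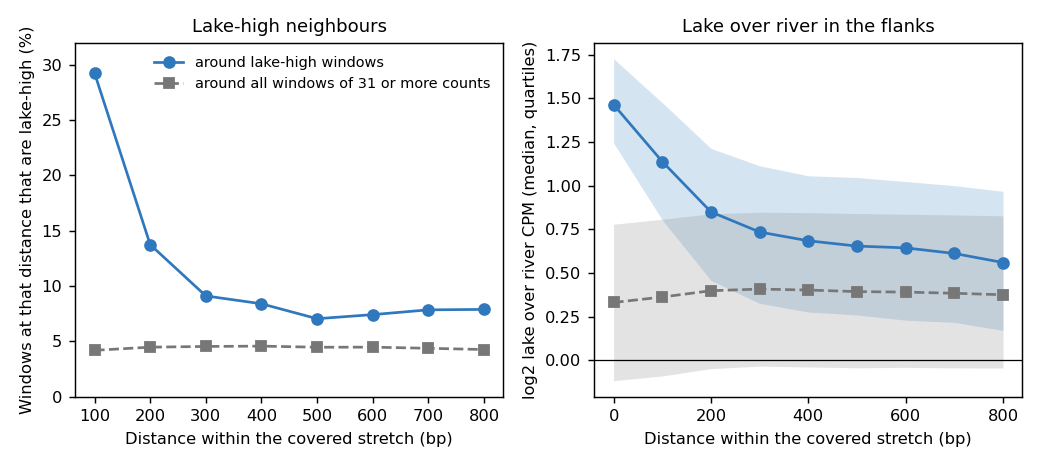
Left, percentage of windows with 31 or more counts that are lake-high at each distance (bp) inside the stretch, around lake-high windows (blue) and around all windows with 31 or more counts (grey). Right, median log2 lake over river CPM with quartiles (shading) at the same distances, from 1.46 in the lake-high windows to 1.14 at 100 bp and 0.56 at 800 bp.

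Sorting the 8398 direct flanks by state gives the same picture. A share of 20.4% was lake-high (2.98% of the flanks of all windows with 31 or more counts), and in 31.1% the 3 lake pools lay above the 3 river pools without reaching the fold (15.1%). In 17.3% the pools overlapped with a higher lake mean (31.6%), and in 1.04% (87 flanks) the lake mean was not higher. The rest had 10 to 30 counts (15.4%), under 10 counts (6.14%, with 2 more empty) or, in 722 cases, lay outside the stretch. Among flanks of all windows with 31 or more counts, the lake mean was not higher in 21.3%. For single lake-high windows, 40.2% of the flanks had the pools apart below the fold, again beside 15.1%.

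Both flanks could be measured for 2966 lake-high windows, and both were above 0 in 95.9% of them (60.8% of all windows with 31 or more counts). The median log2 ratio was 0.87 in the lower flank and 1.40 in the higher flank, against 1.45 in the window between them. For all windows with 31 or more counts these medians were 0.17, 0.67 and 0.41, since the higher of a pair is raised by its choice. Among lake-high windows with no lake-high neighbour, 1788 had both flanks measured, and none of these flanks met the rule. Both flanks were above 0 in 94.9% of them, with medians of 0.76 in the lower and 1.21 in the higher flank. The lake-high window exceeded both of its flanks in 57.1%, compared with 23.8% of all windows. The rule chose the middle window for its high ratio, so this excess is partly set by construction. A single window had both flanks at or below 0.

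Well inside their stretches, single lake-high windows with a large gap show the range of flanks. At 3658801 the lake pools held 8, 11 and 10 counts against 1, 0 and 3 in the river, a gap of 2.76. The window before it held nearly the same (7, 10 and 8 against 1, 0 and 3) but had fewer than 31 counts, and the window after it overlapped (4, 7 and 5 against 0, 0 and 6). At 7225901 the counts were 8, 11 and 11 against 2, 0 and 0, and both flanks leaned the same way with log2 ratios of 1.18 and 1.49. At 5755101 the counts were 10, 12 and 17 against 2, 2 and 4. Its flanks were 8, 11 and 23 against 2, 0 and 11 before, and 7, 14 and 16 against 5, 7 and 8 after, so the pools overlapped on both sides in CPM. Single windows of this kind rest on 2 to 8 river counts in all.

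Beyond the direct neighbours, the remaining windows of the same stretches were also tilted to the lake. With lake-high windows and the windows beside them removed, 2527 stretches kept 31 or more counts. Their median log2 ratio was 0.63 and 90.3% were above 0, against 0.18 and 61.1% for the 23411 stretches with no lake-high window. The lake pools lay wholly above the river pools in 34.1% of these remainders (16.3% of the stretches without a lake-high window). A fold of 1.5 between the nearest pools was reached by the remainder in 37 stretches (1.46%, against 0.453%). The 2 sets were not matched for coverage, with median summed counts of 244 and 329. The ratio of all windows was itself higher at low coverage. Most remainders were thus tilted to the lake, and few reached the fold. That the lake-high windows stood above them follows from the rule that chose these windows.

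Lake-high windows were not gathered at the ends of stretches. The first or last window of a stretch accounted for 721 of them (17.2%), compared with 20.4% of all windows with 31 or more counts and 35.2% of river-high windows. The lake-high share went from 3.58% at the end to 4.31% at 100 bp, 4.27% at 200 bp, 4.76% at 300 bp and 5.01% at 500 bp or more. Coverage moved with this position, from a median of 77 summed counts at the end to 92 to 101 further in. Among windows of 31 to 120 counts the share still went from 5.33% at the end to 6.18% at 100 bp and 6.78% at 500 bp or more. At least 5 windows from both ends lay 229 lake-high windows (5.45%, against 4.64% of all). The position is that of the covered stretch and not of a gene. In the joined sequence, adjacent contigs of the study's lists are parted by a spacer of constant length, so stretches broken there end where a contig ends. An end window can then lie partly in the spacer. Ends of coverage inside a contig were not told apart from these.

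The share also differed with the length and height of the stretch. The lake-high share was 2.99% in stretches of 1 to 4 windows, 4.44% at 5 to 6, 4.38% at 7 to 9, 5.21% at 10 to 14, 4.10% at 15 to 19 and 3.42% at 20 to 42. In stretches of at least 3 windows, the lake-high window was the highest of its stretch in 21.3% (26.3% of all windows with 31 or more counts). Only 5.22% lay in a stretch whose highest window passed 480 counts, against 25.5% of all, which matches the modest coverage of the windows themselves.

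The 3 longest runs by summed counts spanned 500 bp each, and none lay in a stretch with a gene annotation. In the first (15910801 to 15911300) the 5 windows summed to 60.4, 64.7 and 64.0 CPM in the lake pools and to 22.4, 21.2 and 29.9 CPM in the river pools. The run reached the end of its 800 bp stretch, and the window before it also had the lake pools above the river pools (40, 46 and 55 counts against 10, 6 and 30). In the second (1301001 to 1301500) the sums were 36.1, 42.2 and 38.9 CPM against 16.2, 8.14 and 19.2 CPM. This run lay inside a 1400 bp stretch as a separate mound of coverage, and the first 3 windows of that stretch overlapped between sites, with log2 ratios of 0.34, -0.06 and 0.30. The run with the fewest counts of these (17285501 to 17286000) took up all but the last window of a 600 bp stretch, with 117, 147 and 199 counts in the lake and 37, 24 and 64 in the river. The window left over held 1, 6 and 4 counts against 0, 0 and 1, too few to enter.

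At 1831801 to 1833400 lay 1 of the 2 stretches with the most lake-high windows, with 6 of them among its 12 windows with 31 or more counts. They were windows 7, 8, 9, 11, 12 and 14 of 16, so they fell into 3 groups parted by windows 10 and 13. Window 8 held 5.20, 6.09 and 4.79 CPM across lake pools against 1.10, 1.36 and 2.16 across river pools. In window 10 the lake was still higher (2.72, 3.38 and 2.99 against 1.10, 2.26 and 1.20), below the fold. The sites did not separate in windows 4 to 6, where log2 ratios were -0.05, -0.06 and 0.14. At the far end the direction turned, with 3, 0 and 2 counts across lake pools against 4, 4 and 5 across river pools in the last window. A stretch can thus hold lake-high windows and windows without a difference a short distance apart.

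**Figure D4:**
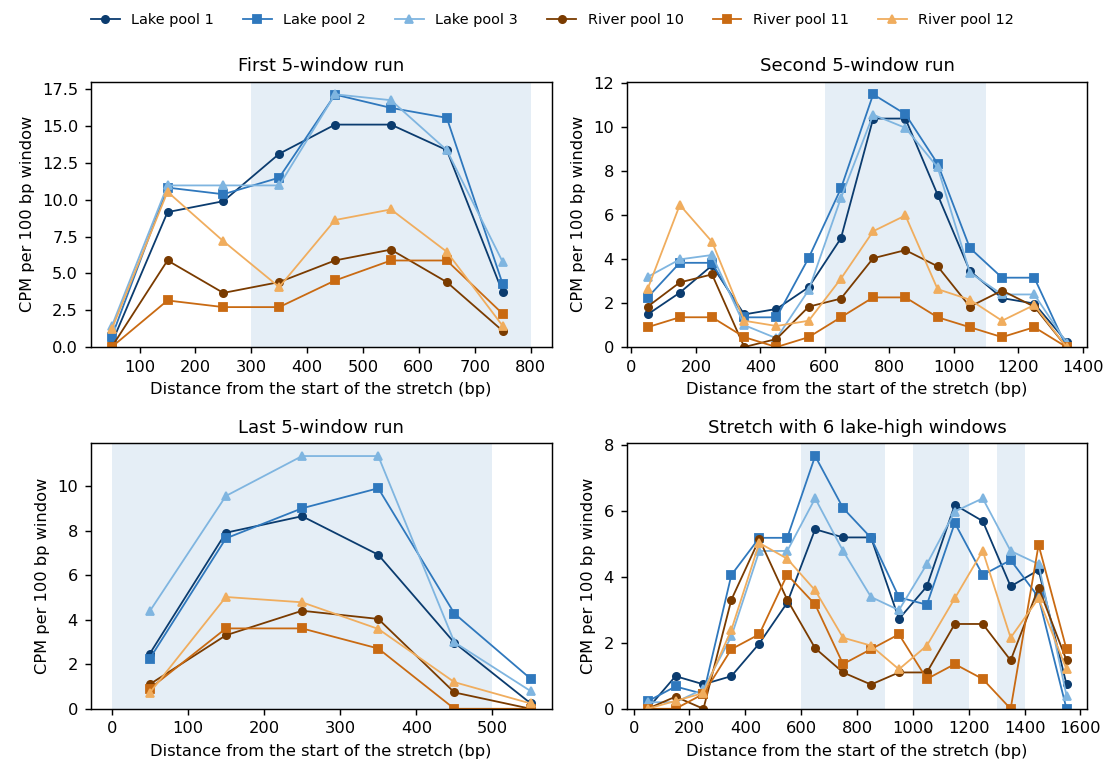
CPM per 100 bp window in each of the 6 pools (lake blue, river orange) along the stretches that hold the 3 longest runs and along the stretch with 6 lake-high windows, by distance from the start of the stretch. Lake-high windows are shaded, and within them all lake points lie above all river points, while several unshaded windows of the same stretches overlap.

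Gene names were available for few windows. The study's supplementary lists name a gene for regions in 303 stretches, and 132 of these held a lake-high window, 205 windows in all, while 3994 lake-high windows lay in no annotated stretch. These lists were chosen on site differences, so they are no sample of genes. In stretches listed for the same lake and river, 175 of 1233 windows with 31 or more counts were lake-high (14.2%), and since that list was chosen on these samples the share is not independent evidence. In stretches listed only for another lake and river, it was 30 of 796 (3.77%), beside 4.26% of all windows with 31 or more counts. Stretches listed for both comparisons are not among these, so this share is partly set by the choice made in these samples. It does not tell whether the other comparison carries over. Roles given below are those known from vertebrates and other model organisms, and none was studied in this snail.

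By the categories of those lists, annotated stretches of proteolysis had 18 lake-high windows of 110 (in 9 of 13 stretches), development 14 of 106, translation 24 of 219, and cytoskeleton 15 of 139. Metabolism and transport had 36 of 436, signaling 18 of 221, transcription 11 of 131 and epigenetic genes 5 of 101, beside 205 of 2029 over all annotated stretches. The 9 stretches annotated to COX1, a mitochondrially encoded subunit of cytochrome oxidase, held no lake-high window among 57 and 6 river-high ones. Of the river-high ones, 4 lay in the stretch at 4760201, and the stretch at 30781301 leaned to the lake (log2 ratio 0.20). Over all annotated stretches, 21 of 2029 windows were river-high.

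The proteolysis group holds parts of the proteasome, the complex that degrades ubiquitin-tagged proteins. psmd14, the deubiquitinating enzyme of its regulatory lid, had 5 lake-high windows of 8. Its best covered window (18266501) held 25, 38 and 40 counts across lake pools against 7, 6 and 15 across river pools, a mean of 7.23 ± 1.47 CPM (SD, n = 2) against 2.96 ± 0.553 (SD, n = 3). PSMB5, a catalytic subunit of the core, had 3 of 9, and these were the last 3 windows of its stretch. Its middle one (596601) held 22, 28 and 33 counts against 1, 1 and 12, with river pool 12 far above the other river pools. psmc5, an ATPase of the regulatory particle, had 2 of 12 and PSMA4, a structural ring subunit, 1 of 7. PSMB4 and PSMA5, further ring subunits, had none among 13 and 7 windows, although the log2 ratios of their stretches were 0.81 and 0.70, like that of PSMA4 (0.83). rpt-2, another ATPase of the regulatory particle, had none among 9, with the lowest stretch log2 ratio of these (0.46). All 7 proteasome stretches were thus above 0, as were 251 of the 303 annotated stretches, so this direction is not particular to them.

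Among autophagy genes, stretches of 3 with an ATG symbol were annotated, and they did not share a direction. ATG3, the enzyme that attaches lipid to the autophagosome protein family of ATG8, had 2 lake-high windows of 3, at the end of its stretch. At 58576801 they held 27, 36 and 43 counts against 3, 8 and 14, or 7.51 ± 1.18 CPM (SD, n = 2) against 2.69 ± 1.38 (SD, n = 3). For atg5, a component of the same conjugation machinery, 2 of 3 windows were lake-high, again the last of the stretch. The better covered held 15, 22 and 40 counts against 2, 3 and 10. ATG4C, a protease that processes ATG8, had no lake-high window and only 1 window with 31 or more counts. The log2 ratio of its stretch was -1.36, with 14, 7 and 11 counts against 14, 11 and 38.

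Signaling genes with calcium and phosphatase roles followed. itpr1b, an intracellular calcium channel opened by inositol trisphosphate, had 3 lake-high windows of 4 and a stretch log2 ratio of 2.26, with 66, 99 and 122 counts across lake pools against 4, 5 and 38 across river pools. River pool 12 held more than the other river pools together. PPP1CA, the catalytic subunit of protein phosphatase 1, named 2 stretches. In the one at 15216601, 3 of 4 windows were lake-high, and 15216801 held 7.34 ± 0.127 CPM (SD, n = 2) against 2.80 ± 0.463 (SD, n = 3). In the other, 1 of 11 was.

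Among metabolic and structural genes, Pepck, an enzyme of gluconeogenesis, had 3 of 5 in a stretch at 25578901 and none of 11 in another at 921701. DDOST, a subunit of the complex that attaches sugar chains to proteins, had 3 of 16. PHB, a scaffold protein of the inner mitochondrial membrane, had 4 of 14, all in the last 6 windows of a 20-window stretch. Its window 546501 held 10.4, 9.69 and 11.6 CPM across lake pools against 3.31, 3.62 and 4.55 across river pools. tnc, an extracellular matrix glycoprotein, had 2 of 5, with 9.41, 13.3 and 12.2 CPM against 3.67, 3.16 and 4.31 in the first. atp5a1, the alpha subunit of ATP synthase, had 1 of 12, with 26, 30 and 44 counts against 4, 3 and 14.

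RNA and chromatin genes complete the named set. UPF3B, a factor of nonsense-mediated mRNA decay, held the best covered lake-high window of any stretch with a gene symbol (12932901), with 41, 62 and 65 counts across lake pools against 11, 8 and 26 across river pools. RPL19, a protein of the large ribosomal subunit, had 2 of 4, and its window 26599201 held 24, 31 and 38 counts against 6, 1 and 15. ZMAT2, a zinc finger splicing factor, had 3 of 10 in a stretch listed only for the other lake and river. yeats4, a reader of modified histones, held 7.18, 8.57 and 8.78 CPM against 2.94, 3.16 and 3.59, with the river pools close together. eif2s3, a translation initiation factor subunit, and rps6, a protein of the small ribosomal subunit, had no lake-high window of 13 and 6, with stretch log2 ratios of 0.79 and 1.15.

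The other best covered windows with a gene symbol came from genes of cilia, vesicle traffic and transcription. MNS1, a protein of the ciliary and sperm flagellar axoneme, held 36, 55 and 50 counts against 6, 7 and 22 in the river. TEKT4, a tektin filament protein of the same structures, held 23, 31 and 32 against 9, 4 and 15. AP1M1, a clathrin adaptor subunit, held 24, 35 and 33 counts against 7, 3 and 16, and TM9SF4, a membrane protein of the secretory pathway, 28, 33 and 38 against 5, 6 and 18. ptdss2, which makes phosphatidylserine, had the lowest log2 ratio of the windows plotted for named genes (0.92), with 26, 33 and 32 counts against 9, 8 and 15. Ubl5, a ubiquitin-like protein with a role in splicing, held 22, 34 and 38 counts against 2, 7 and 15. bcl11a, a zinc finger transcription factor, held 26, 32 and 33 against 4, 5 and 14. The sites were separated by no more than a gap of 2.18 in any of these windows, so none of the best covered gene windows had a large fold.

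**Figure D5:**
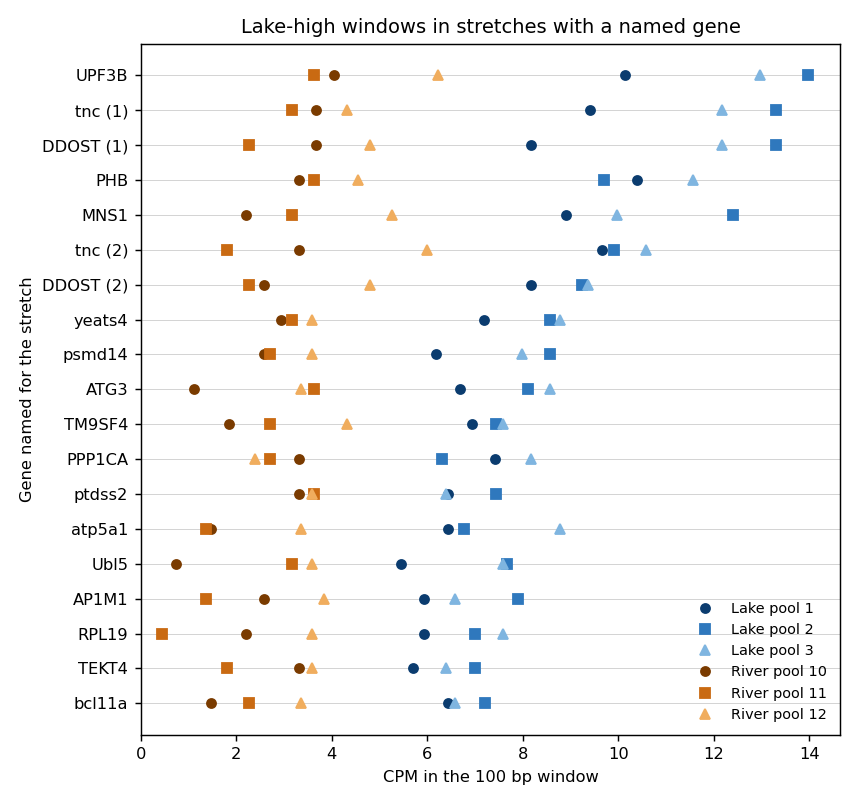
CPM of each pool in the best covered lake-high windows whose stretch carries a gene symbol, with lake pools in blue and river pools in orange (numbers in brackets tell windows of 1 gene apart). The rule places all blue points to the right of all orange ones, and river pool 12 is the highest river pool in most windows.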

How the data were processed

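Foot tissue DNA of 6 pools was measured by MeDIP-Seq. The authors trimmed and checked the reads (Trimmomatic, FastQC), aligned them with Bowtie2 to a transcriptome reference, handled alignments with SAMtools, counted 100 bp windows with MEDIPS and compared sites with edgeR, and no version of these is given in the sources used here. Per window and pool, the deposited table holds a raw read count and an RPKM, and each RPKM the authors deposited is the count times 1 constant per pool. Only the counts were analysed, and the RPKM constant gave 1.47 to 3.34 M reads per pool. Site means, and the fold changes, mean log CPM, p-values and adjusted p-values of the authors' own comparison in the same table, were not used. No column of other samples was present.

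CPM is the count over the column total times 1000000. Windows were tested with edgeR's quasi-likelihood test (edgeR 4.0.16, TMM scaling, robust dispersion, at least 10 summed counts, Benjamini-Hochberg adjustment), whose script was tested on simulated data. Python 3.11.15 with numpy 2.4.6 and pandas 2.3.3 did the rest. Flanks needed at least 10 summed counts inside the same stretch. Shares of windows carry no interval, because neighbouring windows are not independent. Gene symbols and categories came from the study's supplementary lists by position, and symbols that could not be read with certainty are not named. A window chosen by the rule below is not reported here.

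Windows were named by rule: the 3 longest runs, the 4 largest gaps, the 3 highest summed counts, the 2 nearest on each side of the fold, up to 20 of highest counts with a gene symbol, the 3 largest gaps of single windows at least 5 windows from both ends, and the stretch with most lake-high windows, of which some are described. Other genes were picked from the annotated stretches after their values were seen. The members and lists were chosen with earlier results of these data known. Alternatives changed the scaling, minimum, fold, gap, pseudocount, neighbour reach, edge definition, test and pools.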

Additional observations from a re-analysis of the deposited data

How the results depend on the processing

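No paired analysis was possible because lake and river pools carry different numbers and no label links them. The number of lake-high windows (4199) ranged from 5036 to 22156 with a pool left out, was 2530 with DESeq2 size factors and 1686 with the abundance offset, and was 6676 and 2353 at a minimum of 10 and 60 counts, 8146 and 1019 at a fold of 1.3 and 2. The share with an adjacent lake-high window (36.5%) was 34.0%, 32.4% and 27.6% with TMM totals, size factors and the abundance offset, 34.3% at a minimum of 60, 47.6% and 19.9% at a fold of 1.3 and 2, 39.0% with lake pools 2 and 3 merged, 42.5% within 3 windows and 37.9 to 70.1% with a pool left out. The share at a stretch edge (17.2%) was 27.5% and 10.2% at a minimum of 10 and 60, 20.1% at a fold of 2, 7.0% when 10 empty windows ended a stretch, 53.5% with the first 2 and last 2 windows as edge, and 14.2 to 17.9% with a pool left out. A break of 10 empty windows is as long as the spacer between contigs, so that setting can merge adjacent contigs into 1 stretch. The flank median (1.14) stayed between 0.94 and 1.31 under every alternative, 0.98 to 1.31 with a pool left out. The edgeR calls among lake-high windows (518) were 1116 with size factors, 2103 in the exact test, 218 in the DESeq2 Wald test, 1766 without a filter, 0 at a minimum of 60 (2333 at unadjusted p under 0.05), 1 with lake pools 2 and 3 merged, and 0 to 2220 with a pool left out. Of the 518, 213 were called by the DESeq2 Wald test. Shares over all tested windows were not computed for these alternative calls, and the rule used the same contrast. The fold sets membership by construction, and the cause of the other shifts was not tested. Depth limits the windows with few river counts, whose ratios have wide intervals.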
